A study of Mus musculus with 12 samples.

Results

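The NRF2 pathway and glutathione synthesis were followed through 10 genes: Nfe2l2, Keap1, Nqo1, Gclc, Gclm, Hmox1, Txnrd1, Srxn1, Slc7a11 and Gss. They were chosen by name, and all 10 were found among the 20093 genes listed in both count tables of the series. Bulk RNA-seq was measured in 12 mouse livers, 3 in each of 4 groups, with 30071731 to 35949203 reads counted on genes per library. All mice were C57BL/6N males, 4 to 6 months old per the labels, and carried the floxed Elavl1 allele, HuR flox/flox. The groups labelled HuRHep-/- had received AAV8-Tbg-Cre, a virus with Cre under the hepatocyte promoter Tbg, and the groups labelled WT had received AAV8-Tbg-null. One pair of groups ate normal chow, and the other pair ate the HFCF diet for 16 weeks, which drew 40 kcal% from fat and 20 kcal% from fructose and held 2% cholesterol. The study's methods describe a cross with Alb-Cre mice instead, and the counts do not tell which description holds.

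Elavl1, the gene of the RNA-binding protein HuR and the target of the deletion, went against the labels. Its transcript stood at 29.3 to 30.99 CPM (reads on the gene relative to the scaled size of its library) in the chow livers labelled WT and at 38.8 to 42.8 CPM in those labelled HuRHep-/-. On HFCF it stood at 23.9 to 27.0 and at 32.2 to 34.2 CPM, and in neither diet did the groups overlap. The log2 difference over both diets was 0.40 (SE 0.047, limma adjusted p = 0.000247), higher in the livers labelled HuRHep-/-. The study reports efficient loss of HuR mRNA by qPCR in HuRHep-/- livers of its acetaminophen experiment, which are not these libraries. It also names Gsta4 and Gstm6 as repressed in untreated HuRHep-/- livers, the direction found below in chow. Reads on the whole gene do not show whether the floxed exon was deleted. Genotypes are therefore given as labels throughout, and each direction between genotypes is a direction between labels.

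NRF2, encoded by Nfe2l2, is a transcription factor that KEAP1 holds in the cytoplasm and passes to a CUL3 ubiquitin ligase for degradation. Oxidants and electrophiles modify cysteines of KEAP1, whereupon NRF2 accumulates, pairs with small MAF proteins and binds antioxidant response elements of its target genes, while BACH1 competes for the same elements. Targets include the enzymes that make glutathione, the tripeptide that hepatocytes use to detoxify reactive metabolites such as that of acetaminophen. HuR binds AU-rich stretches in the 3′ untranslated regions (UTRs) of many mRNAs and can stabilise them.

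The antioxidant response element has the core TGACNNNGC, which was searched on both strands from 250 bases before to 50 bases after each start site in the RefSeq promoters of GRCm38.p6. Of the 10 genes, 8 had a promoter in that table, 10 promoters in all, and 4 genes had a match. Gclc and Hmox1 had no entry. Among all entries, 12.4% of 32851 promoters, or 14% of 27025 genes, had one. The 4 matches are shown because they belong to the regulator and to 3 genes whose levels are followed below. Each line is the strand of the gene with the core in capitals, and the core reads as its reverse complement in Srxn1, Gclm and Txnrd1.
Nfe2l2: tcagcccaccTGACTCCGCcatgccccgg
Srxn1: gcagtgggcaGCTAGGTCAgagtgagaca
Gclm: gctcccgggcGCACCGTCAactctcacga
Txnrd1: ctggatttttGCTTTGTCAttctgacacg
The stretches lie at chr2:75704885-75704913 (minus strand) for Nfe2l2, chr2:152105542-152105570 for Srxn1, chr3:122245413-122245441 for Gclm and chr10:82859104-82859132 for Txnrd1. Counted from the start site, the first base of the core lies at -240 in Nfe2l2, at -134 in Gclm, at -92 in 1 of the 3 Txnrd1 promoters, and at 29 in Srxn1, inside the transcribed part. A match is a description of letters and not a bound site.

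The pentamer ATTTA, the shortest AU-rich element, occurred in the 3′ UTR of 8 of the 10 genes in GENCODE transcripts of GRCm38, and in 61.6% of 21039 genes overall. Keap1 and Gss had none. Nfe2l2 had 1 in 448 bases, Nqo1 1 in 594, Hmox1 1 in 570, Srxn1 2 in 2184, Txnrd1 4 in 1667, Gclc 4 in 1234, Gclm 6 in 4335 and Slc7a11 11 in 7364. Gclc had the highest density of the 10, 3.24 per kb, beside 1.95 per kb over all genes. The first site is shown, with the pentamer in capitals, for the 2 genes that passed the genotype test over both diets, Nfe2l2 and Txnrd1, and for the 2 subunits of glutamate cysteine ligase.
Nfe2l2: actacagaacttATTTAtactgttctcac
Txnrd1: agagccaaaccaATTTAtccccagaaaga
Gclc: tgattcactgaaATTTActtaaaaaaaaa
Gclm: ccacgaatggaaATTTAatgtgtgtgttc
HuR binding was not measured in these libraries.

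The 10 genes differed widely in level. Levels were set per kb of exon, with all annotated exons of a gene joined. Where the expressed mRNA is shorter than that length, the level is understated, so the order of genes is approximate. The chow livers labelled WT held 41.0 ± 3.74 CPM per kb of Gclc and 30.0 ± 1.45 of Gclm (SD, n = 3). These are the catalytic and modifier subunits of the enzyme of the first and rate-limiting step of glutathione synthesis. Below them came Txnrd1 at 13.9 ± 0.775, Nfe2l2 at 13 ± 0.395 and Gss at 12.1 ± 0.983 CPM per kb, of which neighbours lay within the sum of their SDs. Srxn1 at 10.1 ± 0.928, Keap1 at 9.8 ± 0.313 and Hmox1 at 8.62 ± 2.0 CPM per kb also lay within the sum of their SDs, neighbour by neighbour. Nqo1 followed at 3.21 ± 0.603 CPM per kb. Slc7a11, the cystine importer xCT, was close to absent, with 0.00396 ± 0.00138 CPM per kb. In the HFCF livers labelled HuRHep-/-, Srxn1 at 26.0 ± 6.58 CPM per kb was level with Gclm at 26.9 ± 0.3, and Nqo1 and Slc7a11 were still the lowest pair.

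**Figure D1:**
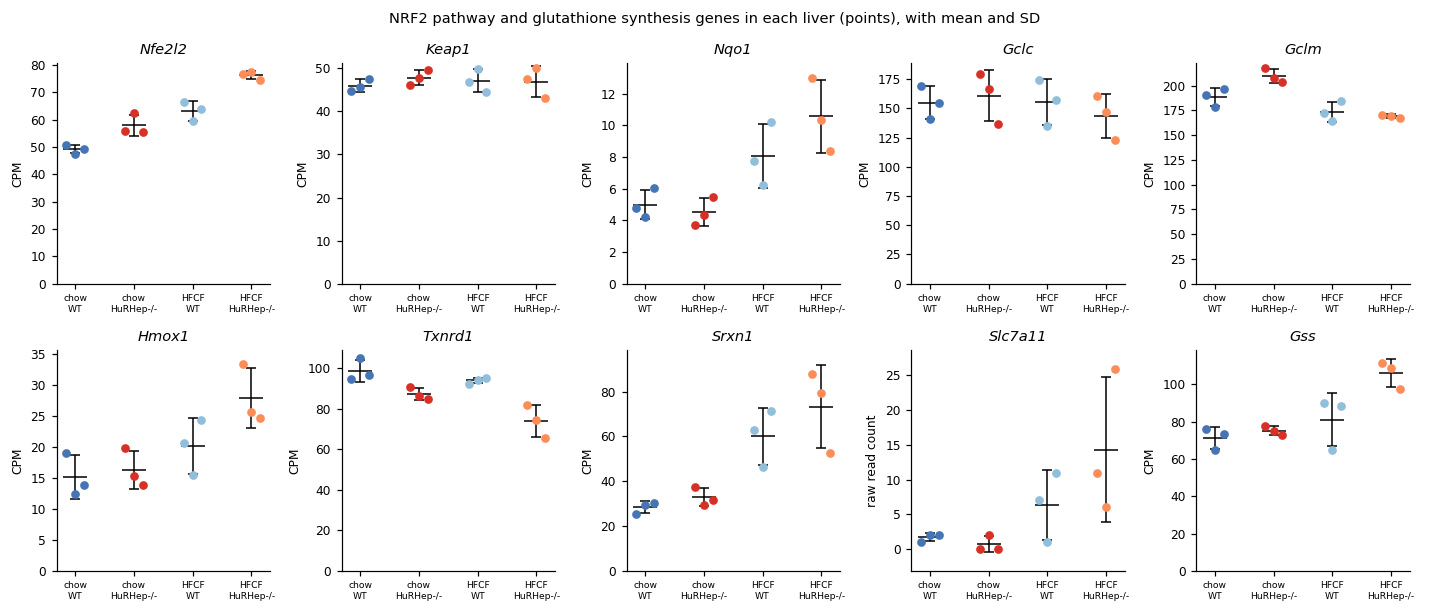
Level of each gene in each liver, in CPM (raw read count for Slc7a11), by group, with points for livers and bars for the mean and SD of 3. Nfe2l2 steps up from a mean of 49.2 CPM in chow WT to 76.2 CPM in HFCF HuRHep-/-, Keap1 stays between 43.05 and 50.15 CPM, and Srxn1 and Nqo1 separate the diets.

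The first comparison asked what the labelled genotype changed in the pathway within each diet. In chow, 0 of the 9 genes tested passed an adjusted p of 0.05, where 4.23% of 13526 genes did, and with HFCF 1 of 10 did, Txnrd1, where 6.79% of 14295 genes did (limma). At an unadjusted p under 0.05 there were 3 in chow, where 23.5% of all genes had one, and 4 with HFCF, where 29.5% had one. Voom weights gave the same numbers of passing genes. With both diets in 1 fit, 2 of 10 passed, Nfe2l2 higher and Txnrd1 lower in the livers labelled HuRHep-/-, and 17.4% of 14535 genes passed there. None of the 10 was a DEG in any genotype comparison, which takes a passing test and a fold change of at least 1.5. Of all genes, 2.29% passed as higher and 1.94% as lower in chow, 2.85% and 3.95% with HFCF, and 8.12% and 9.32% over both. DEGs were 2.24% of the genes tested in chow (1.27% higher, 0.969% lower), 3.62% with HFCF (2.15% and 1.47%) and 4.66% over both (2.94% and 1.72%).

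Nfe2l2 (ENSMUSG00000015839, chr2:75675513-75704641 of GRCm38, minus strand) stood at 50.6, 47.6 and 49.4 CPM in the chow livers labelled WT and at 56.0, 62.4 and 55.4 CPM in those labelled HuRHep-/-. With HFCF it stood at 66.3, 59.4 and 63.9 CPM and at 76.7, 77.4 and 74.6 CPM. In both diets each liver labelled HuRHep-/- was above each liver labelled WT. The labels did not overlap for 28.2% of all genes in chow and 35.9% with HFCF, and the share for both at once was not computed. The log2 difference was 0.25 over both diets (SE 0.045, limma adjusted p = 0.00297), a fold of 1.19. It was 0.24 in chow and 0.26 with HFCF, with adjusted p of 0.0931 and 0.0574 in the 6-library fits and 0.0498 and 0.0222 when all 12 libraries shared 1 estimate of the spread.

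Keap1 (chr9:21229730-21239361, minus strand), the inhibitor of NRF2, stood at 44.7, 45.7 and 47.6 CPM in chow WT, 46.1, 47.8 and 49.7 CPM in chow HuRHep-/-, 46.9, 49.9 and 44.6 CPM in HFCF WT, and 47.5, 50.15 and 43.05 CPM in HFCF HuRHep-/-. All 4 groups overlapped. The log2 difference between labelled genotypes over both diets was 0.02, with a 95% interval of -0.08 to 0.13. With 10.9% of its exon bases opposite the antisense gene Gm16754, its count rests on the strand-aware counting of a stranded kit.

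The ratio of Nfe2l2 to Keap1 reads within a liver needs no scaling between libraries. It was 1.13, 1.04 and 1.04 in chow WT, 1.22, 1.31 and 1.12 in chow HuRHep-/-, 1.41, 1.19 and 1.43 in HFCF WT, and 1.61, 1.54 and 1.73 in HFCF HuRHep-/-. The chow groups overlapped at 1 liver each, and the HFCF groups did not overlap. Over both diets the log2 ratio was 0.23 higher in the livers labelled HuRHep-/- (exact permutation test within diets, two-sided, p = 0.01 over 400 permutations). Within 1 diet 3 livers against 3 cannot go below 0.1, and the exact p was 0.2 in chow and 0.1 with HFCF.

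**Figure D2:**
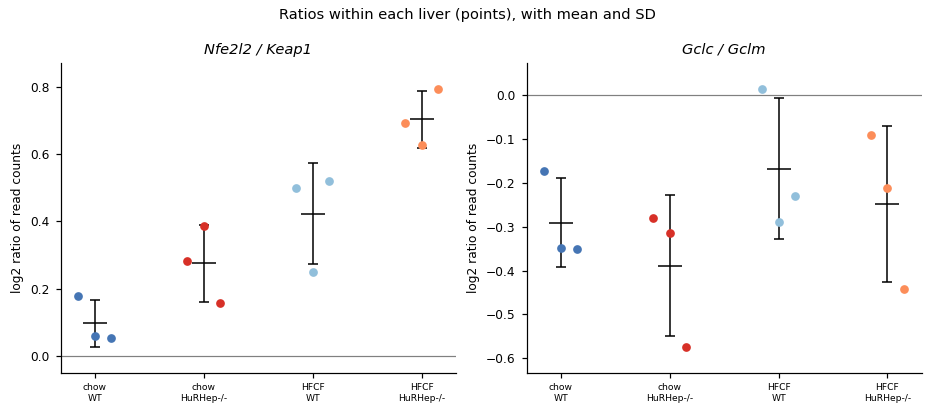
The log2 ratio of read counts of Nfe2l2 to Keap1 and of Gclc to Gclm in each liver, by group, with points for livers and bars for the mean and SD of 3. The Nfe2l2 ratio is highest in all 3 HFCF livers labelled HuRHep-/-, from 0.63 to 0.79, whereas the Gclc ratios of all groups overlap.

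Txnrd1 (chr10:82833951-82897712, plus strand), the cytosolic thioredoxin reductase, stood at 94.6, 105 and 96.8 CPM in chow WT and at 90.7, 86.5 and 84.6 CPM in chow HuRHep-/-. With HFCF it stood at 92.4, 94.4 and 95.05 CPM in WT and at 81.65, 74.55 and 65.65 CPM in HuRHep-/-. Each liver labelled HuRHep-/- lay below each liver labelled WT in both diets. It was lower by 0.26 on the log2 scale over both diets (log2 difference -0.26, SE 0.058, limma adjusted p = 0.00932) and by 0.37 with HFCF (-0.37, SE 0.085, adjusted p = 0.0497). The HFCF call was lost without any 1 of the 6 libraries, with adjusted p from 0.0737 to 0.136, and the chow difference of -0.17 did not pass (adjusted p = 0.175).

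Scaling mattered to the sign of small differences, because the TMM factors moved with the groups, from 0.882 to 0.936 in chow WT up to 1.11 to 1.14 in HFCF HuRHep-/-. With library totals instead of these factors, an alternative chosen after seeing the data, the median log2 difference over all genes between labelled genotypes moved from 0.01 to 0.13. Genes passing over both diets were then higher in 81.4% of cases instead of 46.5%. On that scale Nfe2l2 was 0.36 higher (adjusted p = 0.00125), while Txnrd1 at -0.15 (adjusted p = 0.0988) did not pass, and Keap1 (0.14), Gclm (0.17) and Gss (0.35) passed as higher, with adjusted p of 0.041, 0.0444 and 0.0302. Within chow the median moved from 0.00 to 0.09 and the share from 54.2% to 73%, and with HFCF from 0.00 to 0.15 and from 41.9% to 81.2%. The fall of Txnrd1 is therefore a fall relative to most genes.

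**Figure D3:**
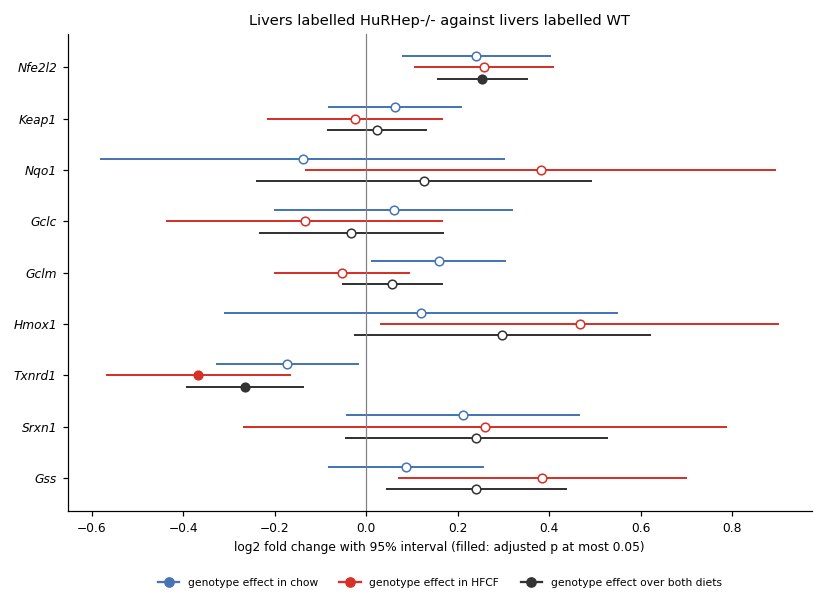
Log2 fold change between labelled genotypes with its 95% interval for 9 genes, in chow, HFCF and both diets, as points with horizontal bars that are filled where the adjusted p was at most 0.05. Filled points are Nfe2l2 over both diets (0.25) and Txnrd1 with HFCF and over both diets (-0.37 and -0.26). Slc7a11 is left out because of its low counts.

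Of the glutathione synthesis genes, Gclc (chr9:77754535-77794485, plus strand) stood at 141 to 169 CPM in chow WT and 137 to 179 CPM in chow HuRHep-/-. With HFCF it stood at 135 to 174 and 123 to 161 CPM, so the groups overlapped in both diets. Its log2 difference between labelled genotypes over both diets was -0.03, with a 95% interval of -0.23 to 0.17.

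Gclm (chr3:122245557-122270732, plus strand) stood at 190, 179 and 197 CPM in chow WT and at 218, 207 and 204 CPM in chow HuRHep-/-. With HFCF it stood at 173, 165 and 185 CPM in WT and at 171, 170 and 167 CPM in HuRHep-/-. The chow groups did not overlap, as was so for Nfe2l2 and Txnrd1 and for 28.2% of all 14535 genes, and the HFCF groups overlapped. Neither difference passed (log2 0.16, adjusted p = 0.183 in chow, and -0.05, adjusted p = 0.6 with HFCF, limma). Of its exon bases 3.88% are shared with Gm6061 on the same strand.

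The ratio of Gclc to Gclm reads ranged from 0.784 to 0.887 in chow WT, 0.672 to 0.824 in chow HuRHep-/-, 0.819 to 1.01 in HFCF WT and 0.736 to 0.939 in HFCF HuRHep-/-. All 4 ranges overlapped. The log2 difference between labelled genotypes over both diets was -0.089 (exact permutation test, p = 0.325).

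Gss (chr2:155563181-155592810, minus strand), which adds glycine to complete glutathione, stood at 75.85, 64.8 and 73.3 CPM in chow WT and 77.45, 75.2 and 73.0 CPM in chow HuRHep-/-. With HFCF it stood at 89.9, 64.8 and 88.5 CPM in WT and at 111.5, 109 and 97.5 CPM in HuRHep-/-. The HFCF groups did not overlap, but the log2 difference of 0.38 (SE 0.13) did not pass in the 6-library fit (limma adjusted p = 0.115) and passed in the 12-library fit (adjusted p = 0.0449). Opposite-strand genes, Acss2 among them, cover 18.6% of its exon bases.

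Among the other targets, Hmox1 (chr8:75093621-75100589, plus strand), the heme oxygenase that macrophages also express strongly, stood at 19.1, 12.4 and 13.8 CPM in chow WT and 19.7, 15.3 and 13.8 CPM in chow HuRHep-/-. With HFCF it stood at 20.6, 15.4 and 24.3 CPM in WT and at 33.4, 25.6 and 24.6 CPM in HuRHep-/-. The HFCF groups did not overlap, as was so for Nfe2l2, Txnrd1 and Gss and for 35.9% of all genes, and the log2 difference of 0.47 (SE 0.18) did not pass (limma adjusted p = 0.147). Summed CPM of 12 Kupffer cell and macrophage markers moved alongside, from 231 to 298 in chow WT, 303 to 449 in chow HuRHep-/-, 328 to 548 in HFCF WT and 511 to 764 in HFCF HuRHep-/-. Single markers did not all follow the sum: with HFCF Cd163 differed by -0.80 between labelled genotypes (limma adjusted p = 0.109), and Marco, Timd4 and Cd163 had negative diet differences in both labels, of which Cd163 in HuRHep-/- passed (-1.37, adjusted p = 0.00249). Of the 12, 7 passed as higher over both diets between genotypes and 0 as lower, 4 and 0 with diet in WT, and 7 and 1 in HuRHep-/-. Of all genes, 8.12% and 9.32% did so over both diets, 11.3% and 12.8% with diet in WT, and 19.7% and 19.1% in HuRHep-/-. None of the 12 was at 0 in any group, and their part in the Hmox1 level was not tested. In bulk liver, fewer cells of a type and less RNA per cell cannot be told apart.

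Nqo1 (chr8:107388225-107403206, minus strand), a quinone reductase and a standard NRF2 target, and Srxn1 (chr2:152105516-152111376, plus strand), which repairs over-oxidised peroxiredoxins, overlapped between labelled genotypes in both diets. Nqo1 differed by -0.14 in chow and 0.38 with HFCF on the log2 scale, with SEs of 0.19 and 0.22. Srxn1 differed by 0.21 and 0.26, with SEs of 0.11 and 0.22. Adjusted p ran from 0.282 to 0.701 over these 4 tests (limma).

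The second comparison set HFCF against chow within each labelled genotype. Diet here comes with its own count table, feeding time and any handling that went with it, and these cannot be told apart. Slc7a11 is left out of the counts that follow, since it entered the test only through the HFCF libraries, where it is high. In the livers labelled WT 3 of the other 9 genes passed, all higher with HFCF, where 24.1% of 14535 genes passed. In those labelled HuRHep-/- 7 of 9 passed, 5 higher and 2 lower, where 38.9% passed (limma). DEGs were 2 in WT (Nqo1 and Srxn1) and 3 in HuRHep-/- (Nqo1, Srxn1 and Hmox1), all higher. Of all genes, 11.3% passed as higher and 12.8% as lower in WT, and 19.7% and 19.1% in HuRHep-/-. DEGs were 9.38% of all genes in WT (6.14% higher, 3.24% lower) and 19.1% in HuRHep-/- (14.2% and 4.9%). Livers of the diets did not overlap for 3 of the 9 genes in WT and 7 in HuRHep-/-, beside 37.6% and 54.6% of all genes. The median log2 change of the 9 genes was 0.17 and 0.40, beside 0.01 and 0.00 over all genes tested.

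Nfe2l2 rose in both, by a log2 change of 0.36 (SE 0.064, limma adjusted p = 0.003) in the livers labelled WT and 0.40 (SE 0.064, adjusted p = 0.000929) in those labelled HuRHep-/-. Each HFCF liver was above each chow liver of its label. Keap1 changed by 0.03 (95% interval -0.12 to 0.19) and -0.03 (-0.18 to 0.12) and passed neither test. The Nfe2l2 to Keap1 log2 ratio differed by 0.33 and 0.43 between diets (exact permutation test, p = 0.1 in each, the smallest that 3 against 3 allows).

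Srxn1 rose in both. It stood at 25.5, 29.5 and 30.4 CPM in chow WT, 37.4, 29.45 and 31.8 CPM in chow HuRHep-/-, 62.7, 46.3 and 71.3 CPM in HFCF WT, and 88.1, 79.4 and 52.5 CPM in HFCF HuRHep-/-. All 6 HFCF livers were above all 6 chow livers, and the share of all genes parted in this way was not computed. Within a label, livers of the diets did not overlap for 37.6% of all genes in WT and 54.6% in HuRHep-/-. The fold was 2.08 in WT (log2 1.06, SE 0.19, limma adjusted p = 0.00335) and 2.19 in HuRHep-/- (log2 1.13, SE 0.19, adjusted p = 0.00132).

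Nqo1 stood at 4.77, 4.18 and 6.02 CPM in chow WT, 3.71, 4.37 and 5.48 CPM in chow HuRHep-/-, 7.735, 6.23 and 10.2 CPM in HFCF WT, and 12.99, 10.3 and 8.38 CPM in HFCF HuRHep-/-. Again all 6 HFCF livers were above all 6 chow livers, by little between 6.02 and 6.23 CPM. It rose 2.33-fold in HuRHep-/- (log2 1.22, SE 0.22, limma adjusted p = 0.00174) and 1.60-fold in WT (log2 0.68, SE 0.22, adjusted p = 0.0436). The WT call was lost with voom weights (adjusted p = 0.0699), in a fit of the 6 WT libraries alone (0.0663), and without any of 6 libraries: chow WT replicate 1 (0.115) or 2 (0.117), chow HuRHep-/- replicate 2 (0.0581), HFCF WT replicate 1 (0.0902) or 3 (0.161), or HFCF HuRHep-/- replicate 2 (0.0586).

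Hmox1 and Gss passed in the livers labelled HuRHep-/-. Hmox1 rose 1.72-fold there (log2 0.78, SE 0.20, limma adjusted p = 0.0113) and Gss 1.41-fold (log2 0.49, SE 0.11, adjusted p = 0.00638), in each case without overlap. In the livers labelled WT the log2 differences were 0.41 (adjusted p = 0.162) and 0.17 (adjusted p = 0.293). For Gss the WT value turned on 1 liver, HFCF WT replicate 2 at 64.8 CPM, without which it was 0.33 (adjusted p = 0.0135).

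Gclm and Txnrd1 fell in the livers labelled HuRHep-/- relative to most genes. Gclm changed by -0.31 on the log2 scale (SE 0.060, limma adjusted p = 0.00268) and Txnrd1 by -0.24 (SE 0.076, adjusted p = 0.0254), with each HFCF liver below each chow liver. Txnrd1 lost its call without chow HuRHep-/- replicate 1 (adjusted p = 0.0719) or 2 (0.0549), without HFCF HuRHep-/- replicate 2 (0.0525) or 3 (0.0943), and in a fit of the 6 libraries compared (0.0508). In WT Gclm differed by -0.12 and Txnrd1 by -0.07 (adjusted p = 0.174 and 0.529). Gclc differed by 0.00 in WT and -0.17 in HuRHep-/- (adjusted p = 0.985 and 0.328).

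Scaled by library totals, the median gene itself was higher with HFCF, by 0.19 on the log2 scale in WT and 0.23 in HuRHep-/-, and the share of passing genes that were higher went from 46.8% to 82.5% and from 50.8% to 84.4%. Nfe2l2, Nqo1 and Srxn1 passed as higher in both and Hmox1 and Gss in HuRHep-/- on that scale too. Gclm at -0.08 and Txnrd1 at -0.02 did not pass in HuRHep-/- (adjusted p = 0.41 and 0.905), and Keap1 passed as higher in both, by 0.21 and 0.20 (adjusted p = 0.0246 and 0.0239).

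**Figure D4:**
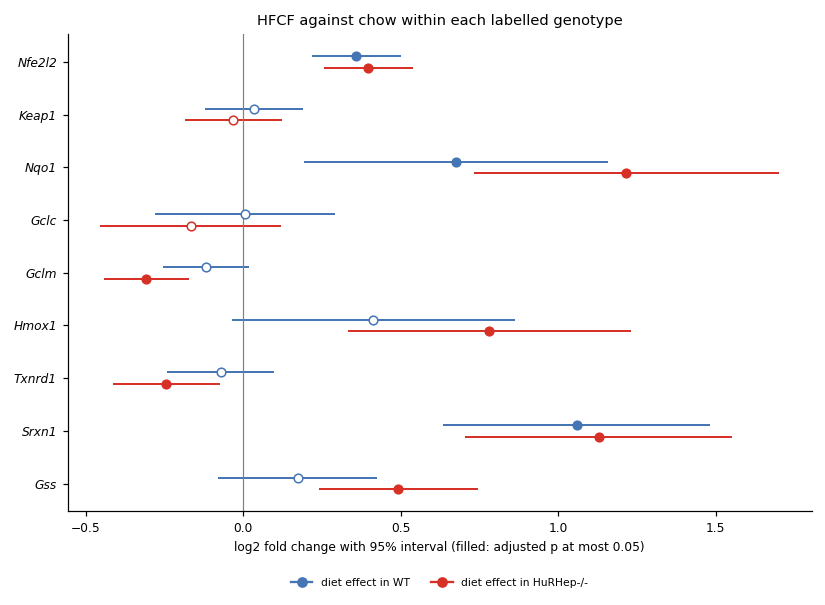
Log2 fold change of HFCF over chow with its 95% interval for 9 genes, in livers labelled WT and HuRHep-/-, as points with horizontal bars that are filled where the adjusted p was at most 0.05. Srxn1 (1.06 and 1.13), Nqo1 (0.68 and 1.22) and Nfe2l2 (0.36 and 0.40) are filled in both, and Keap1 and Gclc in neither.

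Slc7a11 (chr3:49892526-50443614, minus strand) was counted on few reads: 1, 2 and 2 in chow WT, 0, 2 and 0 in chow HuRHep-/-, 7, 1 and 11 in HFCF WT, and 11, 6 and 26 in HFCF HuRHep-/-. It passed the low-count filter through the HFCF libraries alone and was not tested in chow. Summed over the livers of a group and scaled for depth, HFCF against chow was 3.83-fold in WT (19 against 5 reads). In HuRHep-/- it was 21.6-fold (43 against 2 reads). No diet test or interval is given, since the filter admitted the gene through the HFCF libraries alone. On HFCF the labelled genotypes overlapped (limma adjusted p = 0.43).

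A different response of the labelled genotypes to diet was tested as an interaction. None of the 10 genes passed, nor did any of the 14535 tested with limma or with voom weights, while 2086 genes, 14.4%, had an unadjusted p under 0.05. Among the 10, Gclm alone did (log2 difference of the diet effects -0.19, 95% interval -0.3762 to -0.002643, limma adjusted p = 0.341). The diet effect was larger in the livers labelled HuRHep-/- by 0.54 for Nqo1 (interval -0.14 to 1.22), 0.37 for Hmox1 (-0.26 to 1.00) and 0.32 for Gss (-0.03 to 0.67). Adjusted p for these 3 ran from 0.393 to 0.587. Passing in HuRHep-/- and not in WT is thus not shown to be a difference between them for Gclm, Txnrd1, Hmox1 or Gss, as none passed the interaction after adjustment.

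The other genes of the pathway were followed in lists of regulators, targets and glutathione enzymes. Of 16 partners and regulators of NRF2, 0 passed in chow or HFCF between labelled genotypes, and over both diets 1 was higher and 2 were lower, where 17.4% of all genes passed. With library totals 2 were higher, Crebbp (0.18, adjusted p = 0.0365) and Btrc, and 1 was lower, where 18.6% and 4.25% of all genes passed. Bach1, the repressor at antioxidant response elements, stood at 31.4 to 35.1 CPM in chow WT, 25.5 to 29.4 in chow HuRHep-/-, 21.1 to 27.3 in HFCF WT and 16.5 to 19.5 in HFCF HuRHep-/-. No liver labelled HuRHep-/- reached a liver labelled WT of its diet, where the labels did not overlap for 28.2% of all genes in chow and 35.9% with HFCF. Bach1 is described further by its tests. It was lower between genotypes (log2 -0.35, SE 0.071, limma adjusted p = 0.00637) and with HFCF in WT (-0.48, adjusted p = 0.00603) and HuRHep-/- (-0.60, adjusted p = 0.00123), and passed as lower with library totals in all of these too. Mafg, a small MAF partner, differed by -0.28 (adjusted p = 0.0278) and Btrc, a ubiquitin ligase adaptor for NRF2, by 0.23 (adjusted p = 0.0316) between genotypes. Mafg did not pass with library totals (-0.17, adjusted p = 0.0559). Within a diet the smallest p belonged to Btrc, Bach1 and Bach2 in chow (0.35, -0.29 and -0.68, adjusted p = 0.0824, 0.0868 and 0.216) and to Mafg, Bach1 and Syvn1 with HFCF (-0.32, -0.42 and -0.42, adjusted p = 0.0688, 0.0704 and 0.0984).

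With diet, 1 of the 16 was higher and 2 lower in WT, and 0 and 2 in HuRHep-/-, which turned to 4 and 1, and 5 and 1, with library totals. Of all genes, 24.1% passed in WT and 38.9% in HuRHep-/-, or 28.3% and 41.7% with library totals. Cul3, the scaffold of the KEAP1 ligase, fell with HFCF relative to most genes by 0.31 on the log2 scale in WT and 0.35 in HuRHep-/- (log2 -0.31 and -0.35, limma adjusted p = 0.00333 and 0.000847), which did not pass with library totals (-0.13 and -0.12). Syvn1, an endoplasmic reticulum ubiquitin ligase, rose in WT (0.50, adjusted p = 0.0137). Crebbp, a coactivator, differed by -0.24 in HuRHep-/- (adjusted p = 0.0523). The median log2 change of the list was -0.08 in WT and -0.06 in HuRHep-/-.

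Of 27 other NRF2 targets, 0 passed in chow, 1 was lower with HFCF and 2 were lower over both diets between labelled genotypes, beside 4.23% of all genes in chow and 6.79% (3.95% lower) with HFCF. Cat, the peroxisomal catalase, stood at 2365 to 2421 CPM in chow WT, 1993 to 2158 in chow HuRHep-/-, 1995 to 2245 in HFCF WT and 1393 to 1563 in HFCF HuRHep-/-. It was lower over both diets (log2 -0.35, limma adjusted p = 0.00691) and with HFCF (-0.51, adjusted p = 0.0333), as was Sod1, the cytosolic superoxide dismutase, over both (-0.29, adjusted p = 0.00869). Over both diets 2 of 27 passed, both lower, where 17.4% of all genes passed and 9.32% as lower, and the median log2 difference of the list was 0.02. With library totals Prdx1 (0.19, adjusted p = 0.0277) and Blvra (0.17, adjusted p = 0.0411) also passed, as higher, which made 2 higher and 2 lower, where 18.6% and 4.25% of all genes passed. Abcc3, an efflux pump, came next (-0.23, adjusted p = 0.0581). In chow the smallest p belonged to Abcc3, Sod1 and Blvrb (-0.25, -0.36 and -0.38, adjusted p = 0.0832, 0.0868 and 0.108), and with HFCF Sod1 (-0.24, adjusted p = 0.0685) and Cbr3 (1.81, adjusted p = 0.102) followed Cat.

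With diet, 3 of the 27 were higher and 1 lower in WT, and 9 higher and 2 lower in HuRHep-/-, or 9 and 0, and 17 and 1, with library totals. Of all genes, 11.3% were higher and 12.8% lower in WT and 19.7% and 19.1% in HuRHep-/-, or, with library totals, 23.3% and 4.96%, and 35.2% and 6.49%. In HuRHep-/- Pgd, an enzyme of the pentose phosphate pathway, rose from 30.6 to 34.4 CPM up to 53.9 to 98.4 CPM (log2 1.21, limma adjusted p = 0.00128). In WT it rose too, from 25.5 to 35.4 CPM up to 38.3 to 57.4 CPM (log2 0.70, adjusted p = 0.0295). Cbr3, a carbonyl reductase, went from 0.462 to 0.783 CPM up to 3.42 to 8.65 CPM (log2 3.08, adjusted p = 0.00134), and Cat was lower (-0.47, adjusted p = 0.00177). In WT the smallest p belonged to Akr1b3, an aldose reductase (0.56, adjusted p = 0.00594), Entpd5 (0.52, adjusted p = 0.0158) and Sod1 (-0.30, adjusted p = 0.028), and Sod1 did not pass with library totals. The median log2 change was 0.10 in WT and 0.27 in HuRHep-/-.

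Of 26 other glutathione genes 25 were tested. Between labelled genotypes 2 were higher in chow, 1 higher and 2 lower with HFCF, and 2 higher and 3 lower over both, where 4.23%, 6.79% and 17.4% of all genes passed. With library totals these became 2 and 0 in chow, 2 and 0 with HFCF, and 4 and 1 over both, where 5.12%, 9.4% and 22.8% of all genes passed. Ggt6, of the gamma-glutamyltransferase family that opens glutathione breakdown, stood at 15.4 to 16.4 CPM in chow WT, 21.1 to 26.4 in chow HuRHep-/-, 22.2 to 25.4 in HFCF WT and 29.2 to 35.3 in HFCF HuRHep-/-. It was higher over both diets (log2 0.47, limma adjusted p = 0.00126) and in chow (0.51, adjusted p = 0.0372), as was Anpep, a membrane aminopeptidase, in chow (0.34, adjusted p = 0.0464). Dpep1, a dipeptidase, came next in chow (-0.72, adjusted p = 0.14). With HFCF Ggct, which cleaves gamma-glutamyl dipeptides, was higher (0.48, adjusted p = 0.046), and Glo1, the glyoxalase, and Glrx2, a mitochondrial glutaredoxin, were lower (-0.37 and -0.39, adjusted p = 0.0374 and 0.0375), neither of which passed with library totals. Over both diets Glo1 differed by -0.32 and Glrx2 by -0.26 (adjusted p = 0.00868 and 0.0118), and with library totals Glrx2 did not pass.

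With diet, 4 of the 25 were higher and 6 lower in WT, and 7 higher and 5 lower in HuRHep-/-, or 6 and 2, and 9 and 2, with library totals. The shares of all genes were again 24.1% in WT and 38.9% in HuRHep-/-, or 28.3% and 41.7% with library totals. Cth, which makes cysteine from cystathionine, stood at 311 to 361 CPM in chow WT and 145 to 206 CPM in HFCF WT, and at 291 to 364 and 152 to 178 CPM in HuRHep-/-. It fell in both (log2 -0.90 and -0.97, limma adjusted p = 0.000986 and 0.000365), and passed with library totals too. Ggt6 rose in both (0.54 and 0.46, adjusted p = 0.00403 and 0.00505), Ggct rose in HuRHep-/- (0.77, adjusted p = 0.000981), and Ethe1, a mitochondrial persulfide dioxygenase, was lower in WT (-0.56, adjusted p = 0.00512). Slc3a2, the partner chain of Slc7a11, fell in WT relative to most genes (-0.45, adjusted p = 0.00674), which did not pass with library totals (-0.27, adjusted p = 0.0628).

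**Figure D5:**
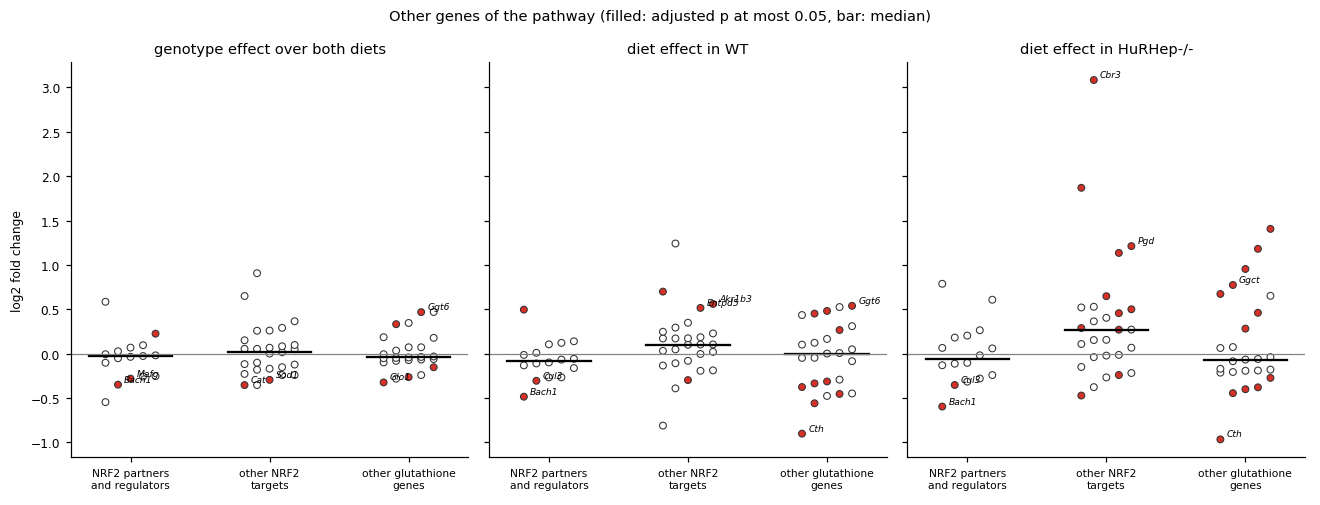
Log2 fold change of each gene of 3 lists (NRF2 partners and regulators, other NRF2 targets, other glutathione genes) between labelled genotypes over both diets and between diets within each label, with filled points where the adjusted p was at most 0.05 and bars at the median. The medians lie between -0.08 and 0.27, and Cbr3 in HuRHep-/- (3.08) is the highest point.

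ATF4, a transcription factor of the amino acid response, shares Slc7a11 with NRF2, and 14 ATF4 genes were set beside the list. Between labelled genotypes 0 passed in chow, 1 was higher with HFCF (Atf5, log2 0.68, limma adjusted p = 0.0189) and 2 were higher over both diets, Atf5 (0.59, adjusted p = 0.00191) and Sesn2 (0.64, adjusted p = 0.015), where 4.23%, 6.79% and 17.4% of all genes passed. With diet 2 were higher and 3 lower in WT, and 6 higher and 3 lower in HuRHep-/-, or 4 and 2, and 7 and 3, with library totals, beside 24.1% and 38.9% of all genes, or 28.3% and 41.7% with library totals. Atf4 itself and Asns, the asparagine synthetase, fell in both, Atf4 by -0.53 and -0.63 and Asns by -2.55 and -2.62, whereas Fgf21 rose in both (1.84 and 1.54) and Vldlr and Nupr1 rose in HuRHep-/- (2.79 and 1.95). The smallest p that missed the threshold between genotypes belonged to Vldlr, Atf5 and Ddit3 in chow (-1.48, 0.49 and -0.52), Sesn2 and Phgdh with HFCF (0.66 and 1.41) and Cebpb over both (-0.41). With diet the members of this list therefore did not move in 1 direction. Between labelled genotypes 9 of the 14 were higher in chow, 11 with HFCF and 11 over both diets, whether or not they passed. The median log2 differences were 0.13, 0.27 and 0.29, beside 0.00, 0.00 and 0.01 over all genes.

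The glutathione S-transferases Gsta4 and Gstm6, which use the glutathione made here, differed by -0.71 (limma adjusted p = 0.0692) and -0.72 (adjusted p = 0.0408) between labelled genotypes in chow. With HFCF they differed by -0.06 and 0.08.

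The genes whose log2 levels followed a member most closely over the 12 libraries were found by the root mean square difference after centring, among genes that varied at least as much. For Nfe2l2 they were Fbxw9, Zdhhc8 and Lyrm2, at 0.080, 0.087 and 0.091 on the log2 scale, beside an SD of 0.245 for Nfe2l2 itself over the 12 livers. For Gclm they were Tmed7, Tnpo1 and Minpp1, at 0.045, 0.052 and 0.058, beside an SD of 0.136. For Gclc they were Jrkl, Zfp729b and Slc11a2, at 0.108, 0.111 and 0.114, beside an SD of 0.167. No other member was among them, but the search left out members that varied less. Gclc and Gclm could therefore not appear for Nfe2l2, nor Gclm for Gclc, so this does not show whether members moved together.

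Hepatocyte markers, 8 in all, summed to 97300 to 120000 CPM in chow WT, 78900 to 88400 in chow HuRHep-/-, 68600 to 76000 in HFCF WT and 64700 to 68900 in HFCF HuRHep-/-, so hepatocyte transcripts were abundant throughout and highest in chow WT. Of the 8, 7 were lower between labelled genotypes in chow and 6 with HFCF, and 8 were lower with diet in WT and 7 in HuRHep-/-. Monocyte and neutrophil markers ran the other way, over 5 of 6 markers listed in both tables. They summed to 35.1 to 48.2 CPM in chow WT, 49.0 to 64.0 in chow HuRHep-/-, 71.5 to 133 in HFCF WT and 127 to 160 in HFCF HuRHep-/-. In the same order of groups, cholangiocyte markers summed to 35.1 to 78.8, 47.0 to 77.3, 38.6 to 87.3 and 133 to 241 CPM. Stellate cell markers summed to 156 to 178, 131 to 186, 168 to 335 and 304 to 362 CPM. Single markers did not all follow the sums. With diet in WT 3 of 5 cholangiocyte markers were higher and 2 lower, as was so for the monocyte and neutrophil markers. Between labelled genotypes in chow 2 of 5 cholangiocyte markers were higher and 3 lower, and 2 of 6 stellate cell markers higher and 4 lower. Over all 12 livers, sinusoidal endothelium markers summed to 86.7 to 116 CPM, lymphocyte markers to 1.86 to 5.11 CPM and erythroid markers to 235 to 687 CPM. No marker of these lists was at 0 throughout a group, and the part of cell composition in the levels of Nfe2l2, Nqo1, Srxn1, Gss and Slc7a11 was not tested.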

How the data were processed

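The authors aligned reads to GRCm38.p6 with reverse-strand alignment in CLC Genomics Workbench and deposited raw read counts per gene in 2 tables, written as text with commas and so recorded here as another unit. No count model was used. Per the labels, total RNA entered a stranded kit, and RNA integrity numbers were above 6.0. Groups came from the labels.

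Counts were turned into log2 CPM (pseudocount 0.5, TMM factors with trims of 0.3 and 0.05) and fitted by limma 3.58.1 in R 4.3.3 with a variance trend. Genes were kept if 3 or more libraries reached the CPM that 10 reads give at median depth, with 15 reads in all. P-values were two-sided, with Benjamini-Hochberg adjustment over all genes tested. A DEG passed 0.05 after adjustment, changed 1.5-fold or more, and had 10 reads over each group. Genotype was fitted within each table, and over both with diet as a covariate, and diet within genotype on all 12 libraries. Scripts also used pandas 2.3.3 and scipy 1.17.1.

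The 10 genes and all lists were chosen with earlier results of these data known. Named from each pathway list were the 3 genes with the smallest p in each comparison, and Slc3a2, Asns, Fgf21, Prdx1, Blvra and 3 macrophage markers were named in addition after their values were seen. Positions and 3′ UTRs are from GENCODE M21, which matched 20703 of 20775 and 22617 of 22709 identifiers. No libraries held identical counts. No source says that replicates came from separate litters or cages, so p-values measure the spread between these samples. The fits were also run on simulated counts with the same spread for all genes and changes only in well-counted genes. That does not test them at the spread of these livers or at low counts. Alternatives were median-of-ratios factors, no filter, a pseudocount of 2, voom weights, the replicate number as a block, no fold threshold, another set of libraries in the fit, each library left out and, chosen after seeing the data, library totals.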

Additional observations from a re-analysis of the deposited data

How the results depend on the processing

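Without a fold threshold the DEGs numbered 564 in chow, 958 with HFCF, 2474 over both diets, 3429 for diet in WT and 5565 in HuRHep-/-, of which 0, 1, 2, 3 and 7 were among the 10 genes. Fitted on all 12 libraries, 1 of the 10 genes passed between genotypes in chow and 3 with HFCF. The share of all genes passing in that fit is not given, so these counts cannot be set against it. With HFCF 0 passed with median-of-ratios factors or no filter, where Txnrd1 had adjusted p of 0.0502 and 0.0578 (limma). For diet in WT 1 of the 10 was a DEG with no filter, with voom weights or in a 6-library fit, since Nqo1 was lost. With library totals, chosen after seeing the data, 4 passed over both diets, 5 were DEGs for diet in HuRHep-/-, and 8 genes were DEGs for the interaction, where 0.0757% of all genes passed. Signs also turned there: between genotypes for Keap1 (0.126), Gclc (0.017) and Gclm (0.097) with HFCF and Gclc over both (0.078), and between diets for Gclm (0.061) and Txnrd1 (0.109) in WT and Keap1 (0.197) and Gclc (0.062) in HuRHep-/-. By construction that scaling moves all genes of a library together. Slc7a11 over both diets turned to 0.088 with a pseudocount of 2 and 0.441 with voom weights, and Gclc for diet in WT to -0.002 with no filter. The cause was not tested.

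Leaving out 1 library at a time gave 8 to 320 DEGs in chow (8 without HuRHep-/- replicate 2, 79 without WT replicate 3, 95 without HuRHep-/- replicate 1, 110 without WT replicate 1) and 28 to 850 with HFCF (28, 32 and 98 without HuRHep-/- replicates 1, 2 and 3, 39 and 850 without WT replicates 1 and 3). It gave 521 to 904 over both diets, 847 to 1781 for diet in WT (847 without chow WT replicate 1, 874 without HFCF WT replicate 3), 2152 to 2861 in HuRHep-/- and 0 to 34 for the interaction (34 without HFCF WT replicate 3, 2 without chow WT replicate 2). Of the 9 genes other than Slc7a11, 0 passed in chow and with HFCF, 2 over both diets, 2 to 4 for diet in WT and 6 to 7 in HuRHep-/-, with 1 to 2 and 3 to 3 DEGs. Log2 differences that crossed 0 spanned, in chow, -0.287 to 0.001 for Nqo1, -0.026 to 0.172 for Gclc and -0.033 to 0.296 for Hmox1, and with HFCF -0.073 to 0.04 for Keap1. Over both diets they spanned -0.004 to 0.046 for Keap1, -0.089 to 0.016 for Gclc and -0.672 to 0.165 for Slc7a11. For diet they spanned -0.081 to 0.104 for Gclc and -0.008 to 0.074 for Keap1 in WT and -0.083 to 0.027 for Keap1 in HuRHep-/-, and for the interaction -0.006 to 0.093 for Nfe2l2 and -0.107 to 0.292 for Srxn1.

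Same-numbered livers of a pair of groups correlated at -0.135 to 0.188 and share only a number. With the replicate block the DEGs numbered 226, 764, 641, 1354, 2752 and 0, and without Slc7a11 the other 9 genes gave 0, 1, 2, 3, 7 and 0 passing genes, as without the block. The Nfe2l2 to Keap1 ratio had p = 0.0312 and Gclc to Gclm p = 0.188 in the blocked exact permutation test, which pairs livers by number. The first is the smallest p that this test can give. With 3 livers a group, the 95% intervals of Nqo1, Hmox1, Srxn1 and Gss between genotypes with HFCF reached past a 1.5-fold increase, and Slc7a11 rests on too few reads for more than its counts.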
